A study of Homo sapiens with 3 samples.

Results

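The genes described here are 41 genes of the centromere, the kinetochore and the spindle checkpoint. They were chosen by name, with earlier results of these data known. Gene-level values came from the probe sets that name one gene alone, averaged per gene. On that basis 40 of the 41 were measured, out of 18417 genes in the table, and CENPA was not analysed because no probe set named it alone. The cells were LNCaP, an established human prostate carcinoma line, grown in RPMI1640 with 10% serum and transfected with RNAiMAX. RNA was taken 72 hours after transfection with siSE1 (1 array) or siSE2 (1 array), siRNAs against the chimeric SLC45A3-ELK4 transcript, or with a negative control siRNA (1 array), named siGl2 in the design text. For the array titled siSE2, 1 label field gives siSE1 as the transfected siRNA. The title was followed, and if that field is right the siRNA arrays are repeats of siSE1.

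The kinetochore is the protein assembly that ties a chromosome to the spindle. It is built on centromeric nucleosomes that hold the histone variant CENP-A. The constitutive centromere-associated network (CCAN) sits on that chromatin, and the KMN network (KNL1, the MIS12 complex and the NDC80 complex) joins it to microtubules. Unattached kinetochores recruit the spindle checkpoint proteins, which hold back the anaphase-promoting complex until all chromosomes are attached. For many of these genes, though not all, RNA levels rise toward G2 and mitosis, so their RNA is more abundant in dividing cells than in resting ones.

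In bulk RNA, fewer dividing cells and less RNA per cell cannot be told apart, and with 1 control array a high reading on that array cannot be told apart from an effect shared by the siRNAs. The parent genes do not check the knockdown, since their probe sets do not resolve the chimeric junction. SLC45A3 read 9.14 with siSE1 and 9.27 with siSE2, against 9.66 in the control, and ELK4 read 8.45 and 8.20, against 8.50 (log2; limma, adjusted p = 0.154 and 0.582). The luminal markers KLK3, KLK2, KRT8 and KRT18 read between 9.40 and 10.7 on the 3 arrays. KLK3 and KLK2, secreted proteases, were lower on both siRNA arrays (-0.39 ± 0.14 and -0.27 ± 0.16), and the keratins KRT8 and KRT18 were higher on both (0.43 ± 0.14 and 0.42 ± 0.15). These changes (log2, mean ± SE) did not pass (limma, adjusted p from 0.173 to 0.415). Markers of basal cells (3 of 3 measured) and of fibroblasts and stroma (5 of 5) read higher on both siRNA arrays, with median changes of 0.20 and 0.13. The widest single difference among them was 0.67, for the basal keratin KRT15 with siSE2. Of the 4 blood markers 3 read higher on both, with CD14, a monocyte gene, 0.19 higher with siSE1 and 0.35 with siSE2. Of these basal, stromal and blood markers 1, 3 and 1 lay above the filter on dim genes and were tested, and none of those passed. Basal and stromal readings ran from 2.41 (LUM, a matrix gene, in the control) to 6.99, and all blood markers read at most 5.38, with PTPRC, the pan-leukocyte gene, between 3.17 and 3.22. The part of any of these markers in the results below was not tested. Other luminal markers were not analysed here. Separate cultures are not stated in the labels, so each p-value reflects array-to-array spread, which may be technical.

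Nearly all of these genes read lower with the siRNAs than in the control, by a modest amount. The median log2 change over the 40 measured genes was -0.37 with siSE1 and -0.44 with siSE2, and -0.42 for their mean, which is 1.34-fold lower. Over all 12892 genes tested the corresponding medians were -0.02, -0.01 and -0.02. Both siRNA readings lay below the control reading for 37 of the 40 genes (92.5%), against 41.7% of all genes tested. The siRNAs share the 1 control array, so these are not separate observations of the control. The genes were chosen with earlier results of these data known, so their contrasts with all genes, here and below, are descriptions and not tests.

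At the size rule, at least 1.5-fold lower on both siRNA arrays, 6 of the 40 genes were called, against 1.53% of all genes tested. They were KNL1, CENPK, CENPI, SGO1, SKA2 and ZWINT, with mean changes between 1.61-fold and 2.21-fold. At 1.3-fold the count was 17 of 40 (42.5%, against 5.82%), and at 2-fold it was 0 (against 0.101%). In the limma fit over all genes tested, KNL1 alone passed at an adjusted p under 0.05 (1 of 40, 2.5%, against 0.714% of genes called lower). No member was called higher (0.248% of genes tested were), and 39 did not pass. At an unadjusted p under 0.05, 26 members were lower and 0 higher, against 11.3% and 6.46% of all genes tested. Of the 40 genes, 24 (60%) lay among the lowest 10% of all genes by mean change. The spread in this fit rests on the siSE1 and siSE2 arrays alone, with 1 residual degree of freedom. In most runs on simulated data of this layout the fit called more unchanged genes than its threshold allows, so an adjusted p under 0.05 here, that of KNL1 included, overstates the certainty of the call. With no filter on dim genes 0 of the 40 passed (KNL1, limma, adjusted p = 0.0991). Under the 8 other settings tried, the adjusted p of KNL1 ran from 0.0234 to 0.0991, and that setting was the 1 where it did not pass.

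**Figure D1:**
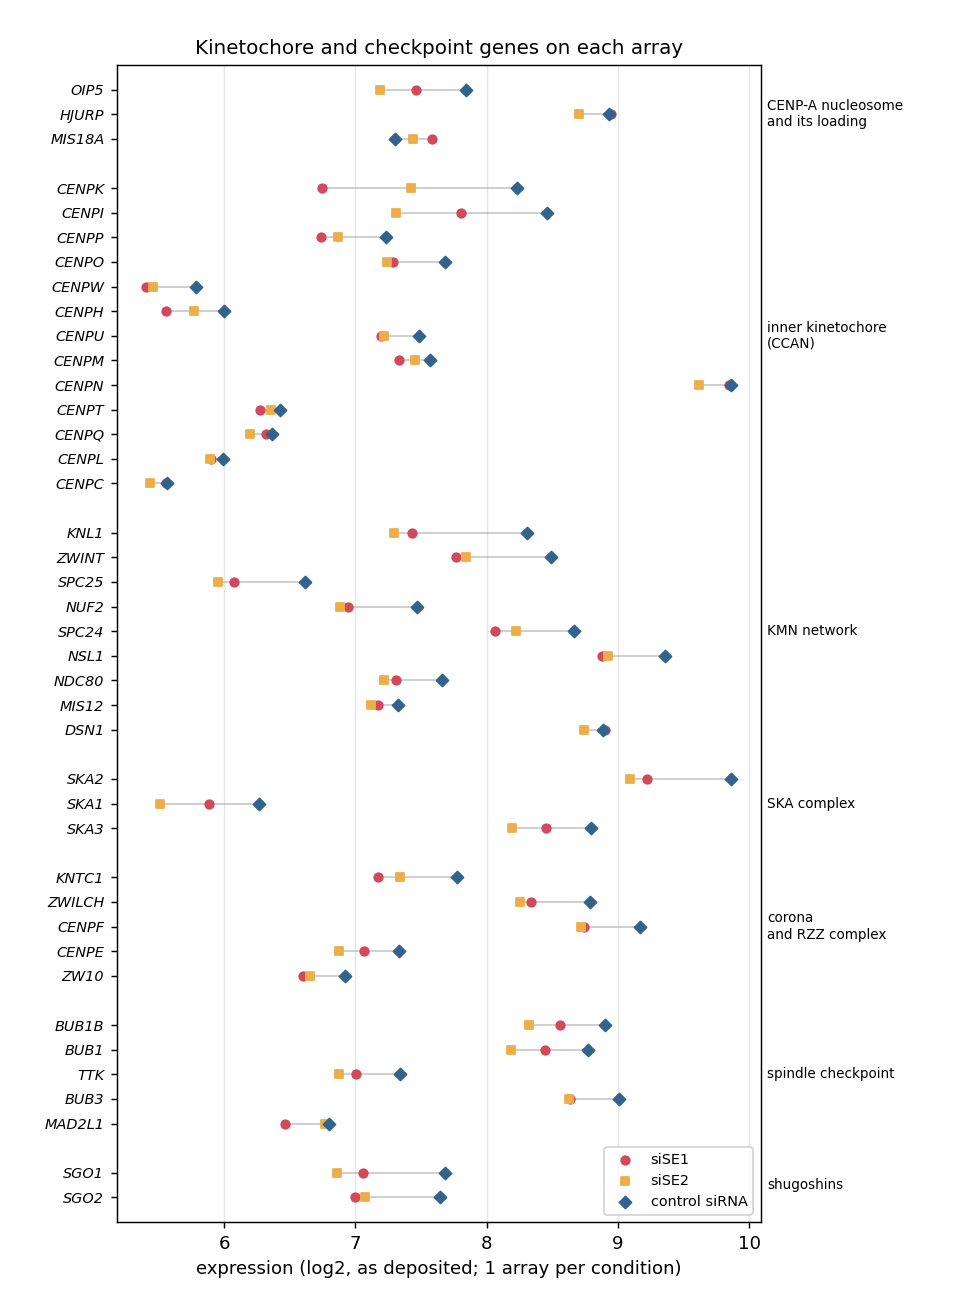
Expression of the 40 measured genes on each array (x axis, log2 values as deposited), grouped by role and ordered by change within a role; the points are siSE1, siSE2 and control, 1 array each, and the grey line spans the 3 readings. The control point is the rightmost in 37 genes; MIS18A has it leftmost.

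Cell cycle promoters are known for CHR elements and CCAAT boxes, bound by the DREAM and B-MYB complexes and by NF-Y, and for E2F sites. The windows from 250 bases before to 50 bases after the transcription start (RefSeq, GRCh38.p14) were available for 33 of the 41 genes. KNL1, the member that passed in limma, and MIS18A, higher on both siRNA arrays, had none. Nor had BUB3, TTK, KNTC1, CENPH, CENPL and CENPM, and the motif results leave all of these out. Windows are shown for 4 of the genes that met the size rule and for HJURP and DSN1, the pair whose readings lay on both sides of the control. Each run covers 240 bases before the start and 10 from the start on, written 5′ to 3′ on the gene's strand, and capitals mark the motif matches. The start used for SGO1 lies 680 bases inside the annotated gene.
SGO1 (chr3:20186197-20186446, minus strand): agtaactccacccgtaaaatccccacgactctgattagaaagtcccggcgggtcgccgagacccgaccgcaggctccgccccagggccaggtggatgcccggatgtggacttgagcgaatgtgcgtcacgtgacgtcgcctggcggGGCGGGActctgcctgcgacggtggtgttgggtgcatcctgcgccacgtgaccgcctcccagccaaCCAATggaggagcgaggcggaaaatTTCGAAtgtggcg
ZWINT (chr10:56361250-56361499, minus strand): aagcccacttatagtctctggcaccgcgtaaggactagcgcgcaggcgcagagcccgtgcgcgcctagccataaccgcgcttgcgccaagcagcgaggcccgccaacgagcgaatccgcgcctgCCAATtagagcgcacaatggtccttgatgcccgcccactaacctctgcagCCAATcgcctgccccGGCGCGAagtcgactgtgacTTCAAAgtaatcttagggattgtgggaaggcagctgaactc
SKA2 (chr17:59155177-59155426, minus strand): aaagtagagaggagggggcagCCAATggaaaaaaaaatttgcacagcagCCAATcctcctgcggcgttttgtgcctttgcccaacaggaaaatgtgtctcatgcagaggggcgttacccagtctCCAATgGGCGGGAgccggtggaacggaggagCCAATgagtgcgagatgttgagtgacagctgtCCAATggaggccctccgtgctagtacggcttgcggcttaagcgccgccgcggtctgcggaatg
CENPK (chr5:65563159-65563408, minus strand): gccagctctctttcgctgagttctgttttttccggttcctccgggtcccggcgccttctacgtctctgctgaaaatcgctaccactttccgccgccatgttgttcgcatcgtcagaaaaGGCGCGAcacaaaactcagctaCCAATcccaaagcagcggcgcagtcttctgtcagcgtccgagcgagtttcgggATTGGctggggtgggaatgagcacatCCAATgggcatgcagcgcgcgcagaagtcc
HJURP (chr2:233854526-233854775, minus strand): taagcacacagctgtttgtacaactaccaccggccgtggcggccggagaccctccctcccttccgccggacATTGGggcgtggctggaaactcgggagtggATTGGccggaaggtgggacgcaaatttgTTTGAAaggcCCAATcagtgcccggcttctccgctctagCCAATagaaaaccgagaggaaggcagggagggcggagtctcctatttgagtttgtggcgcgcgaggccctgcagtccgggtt
DSN1 (chr20:36773754-36774003, minus strand): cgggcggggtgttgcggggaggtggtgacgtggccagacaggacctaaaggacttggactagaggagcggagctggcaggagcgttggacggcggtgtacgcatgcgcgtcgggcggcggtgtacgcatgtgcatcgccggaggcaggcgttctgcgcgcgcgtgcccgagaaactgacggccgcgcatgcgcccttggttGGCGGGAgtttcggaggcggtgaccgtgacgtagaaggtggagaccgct

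The motifs searched were the CHR as TTTGAA or TTCGAA, the CCAAT box as CCAAT, and E2F-like letters as GCGGGAA with its shifted form GGCGGGA, the form GGCGCGA and the form TTTCGCG, each on both strands. The first pair can overlap, and overlapping matches were counted apart. A CHR match lay in 19 of the 33 member promoters (57.6%), against 16.6% of all 27305 promoters in the table. A CCAAT box lay in 21 (63.6%), against 35.7%, and an E2F-like match in 20 (60.6%), against 22.3%. Among the 15842 protein-coding promoters alone the shares were 13.5%, 36.4% and 29.6% in the same order. Of the 21 CHR matches in member promoters 17 began no more than 50 bases before the start or after it (81.0%), against 27.0% of CHR matches in all promoters.

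Members with and without a match had close median changes. The median log2 change was -0.45 for the 18 measured genes with a CHR match and -0.44 for the 14 without. For the CCAAT box the medians were -0.45 with and -0.44 without, and for E2F-like matches -0.49 with and -0.43 without. In the sequences above, SGO1 and ZWINT hold all 3 kinds, SKA2 has 5 CCAAT boxes and CENPK 3, both with an E2F-like match. HJURP holds a CHR match and 4 CCAAT boxes, and its siSE1 reading was not below the control. CENPI, among the largest changes, had 0 matches, but the start used for its window lies 2854 bases inside the annotated gene. A letter match is not a binding site, and no binding was measured.

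**Figure D2:**
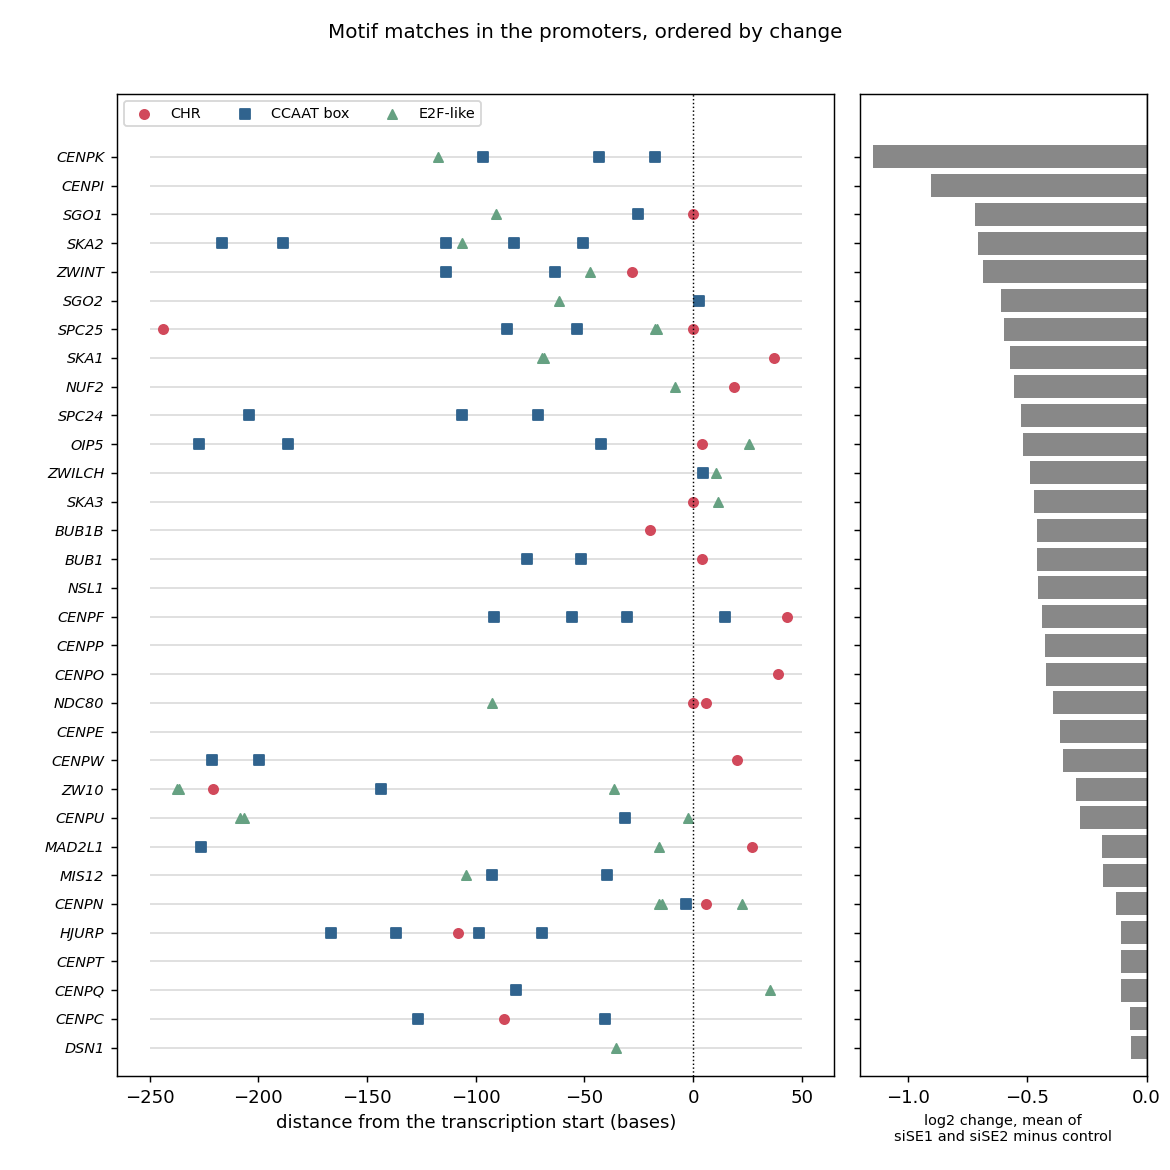
Left, motif matches (CHR, CCAAT box, E2F-like) in the promoters of the 32 measured genes with a promoter entry, by distance from the transcription start in bases; right, each gene's log2 change, mean of siSE1 and siSE2 minus control. Genes run from the most negative change (CENPK, -1.14) at the top to DSN1 (-0.07) at the bottom, and each kind of match occurs along the whole order.

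The 3 measured genes that load CENP-A had a median change of -0.11, and none passed. HJURP, the CENP-A chaperone, read 8.95 with siSE1 and 8.70 with siSE2, against 8.93 in the control. The siRNA readings of HJURP lay on both sides of the control, and the mean change of -0.11 ± 0.16 (SE) did not pass, with a 95% interval from -0.46 to 0.24. OIP5, also called MIS18B, a subunit of the complex that licenses loading, read 7.46 and 7.19 with siSE1 and siSE2, against 7.84 in the control (-0.52 ± 0.16; limma, adjusted p = 0.143). Its partner MIS18A read 7.59 and 7.44 with siSE1 and siSE2, against 7.31 in the control, a change of 0.21 ± 0.15 (limma, adjusted p = 0.495). MIS18A was the 1 member of 40 with both siRNA readings above the control, and it is singled out for that after its values were seen.

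The 13 CCAN genes among the members had a median change of -0.28, all 13 read lower on both siRNA arrays, and 0 passed. The remaining CCAN subunits are counted with the kinetochore and checkpoint partners further on. The largest change of any member belonged to CENPK, a subunit of the CENP-H/I/K/M complex. CENPK read 6.75 with siSE1 and 7.43 with siSE2, against 8.23 in the control. Both readings were below the control and far from each other, and the mean change of -1.14 ± 0.24 did not pass (limma, adjusted p = 0.0594). It did pass with quantile normalization (adjusted p = 0.0444) and with a variance prior that follows mean expression (adjusted p = 0.0497). CENPK was also the 1 member whose siRNA arrays stood at least 1.5-fold apart (1.60-fold, lower with siSE1), as 1.16% of all genes tested did.

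CENPI, another subunit of the same complex, read 7.80 with siSE1 and 7.31 with siSE2, against 8.46 in the control. Here siSE2 gave the lower reading, and the mean change was -0.90 ± 0.20 (limma, adjusted p = 0.0662). The other subunits of that complex stood closer to the control, with CENPH at -0.33 ± 0.15 and CENPM at -0.17 ± 0.14. In the CENP-O/P/Q/U group CENPP stood at -0.43, CENPO at -0.42, CENPU at -0.28 and CENPQ at -0.11. CENPC, which contacts the CENP-A nucleosome directly, read 5.55 with siSE1 and 5.43 with siSE2, against 5.56 in the control. The mean change of CENPC, -0.07 ± 0.14 (95% interval -0.39 to 0.26), was the smallest of the CCAN, and its readings were dim, not far above the filter level of 5.12. CENPN and CENPL, which form a pair on the CENP-A nucleosome, stood at -0.13 and -0.09. The histone-fold partners CENPT and CENPW stood at -0.11 and -0.35.

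The KMN network held the 1 member that passed in limma. KNL1, the scaffold that recruits BUB1 and BUBR1 once phosphorylated, read 7.43 with siSE1 and 7.29 with siSE2, against 8.31 in the control. The siRNA readings lay close together and well below the control, and KNL1 fell by 0.95 on the log2 scale (SE 0.15), a 1.93-fold decrease (limma, adjusted p = 0.0279). ZWINT, which binds KNL1 and links it to the RZZ complex, read 7.77 and 7.84 with siSE1 and siSE2, against 8.49 in the control. Its mean change of -0.69 ± 0.14 did not pass (limma, adjusted p = 0.0592).

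All 4 NDC80 complex genes, whose products grip the microtubule, read lower on both siRNA arrays. SPC25 stood at -0.60 ± 0.14, NUF2 at -0.56 ± 0.14, SPC24 at -0.53 ± 0.15 and NDC80 at -0.39 ± 0.14, and none passed (limma, adjusted p from 0.0856 to 0.198). The MIS12 complex, the foundation of the KMN network on the CCAN, gave values further apart. NSL1 stood at -0.46 ± 0.14 and MIS12 at -0.18 ± 0.14. DSN1 read 8.90 with siSE1 and 8.74 with siSE2, against 8.89 in the control, a change of -0.07 ± 0.15 (95% interval -0.40 to 0.27) with readings on both sides of the control. Over the 9 KMN genes the median was -0.53, and 8 of them read lower on both arrays.

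The SKA complex, which tracks microtubule ends with NDC80, had a median change of -0.57 over 3 genes. SKA2 read 9.22 with siSE1 and 9.09 with siSE2, against 9.86 in the control, a change of -0.71 ± 0.15 (limma, adjusted p = 0.0581). SKA2 was the 1 member with more than 1 probe set, and its pair of probe sets gave the same change, -0.71 and -0.70. SKA3 read 8.46 and 8.20 with siSE1 and siSE2, against 8.80 in the control (-0.47 ± 0.16), and SKA1 stood at -0.57 ± 0.18. The siSE2 reading of SKA1 was dim, at 5.51. All 3 SKA genes were lower with siSE2 than with siSE1, and none passed.

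The corona and RZZ genes had changes between -0.52 and -0.29 and all 5 lower on both siRNA arrays. KNTC1, which encodes ROD of the RZZ complex that brings dynein and MAD1-MAD2 to kinetochores, read 7.18 with siSE1 and 7.34 with siSE2, against 7.78 in the control. Its change was -0.52 ± 0.15 (limma, adjusted p = 0.121). ZW10, the subunit that also serves membrane traffic in interphase, read 6.60 and 6.65 with siSE1 and siSE2, against 6.92 in the control (-0.29 ± 0.14). ZWILCH, the remaining subunit, stood at -0.49 ± 0.14. Of the large coiled-coil proteins of the corona, CENPF stood at -0.44 ± 0.14 and CENPE, a plus-end kinesin, at -0.36 ± 0.15. None of the 5 passed.

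Spindle checkpoint genes had a median change of -0.40, and all 5 read lower on both siRNA arrays. BUB1B, which encodes the checkpoint pseudokinase BUBR1, read 8.56 with siSE1 and 8.32 with siSE2, against 8.90 in the control, a change of -0.46 ± 0.16 (limma, adjusted p = 0.172). The kinase gene BUB1 stood at -0.46 ± 0.16, TTK, which encodes the kinase MPS1, at -0.40 ± 0.15 and BUB3, the WD-repeat partner of BUB1 and BUBR1, at -0.37 ± 0.14. MAD2L1, which encodes the inhibitor MAD2, read 6.46 with siSE1 and 6.77 with siSE2, against 6.80 in the control. The siSE2 reading of MAD2L1 was almost at the control, and its mean change of -0.19 ± 0.17 was the smallest of the group. None of these genes passed.

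Both shugoshin genes, whose products protect centromeric cohesin, stood among the lower members. SGO1 read 7.06 with siSE1 and 6.86 with siSE2, against 7.68 in the control, a change of -0.72 ± 0.15 (limma, adjusted p = 0.0616). SGO2 read 7.00 and 7.07 with siSE1 and siSE2, against 7.65 in the control, a change of -0.61 ± 0.14 (limma, adjusted p = 0.0759). The siRNA readings stood 1.14-fold apart for SGO1 and 1.05-fold apart for SGO2, and for both genes they lay below the control.

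**Figure D3:**
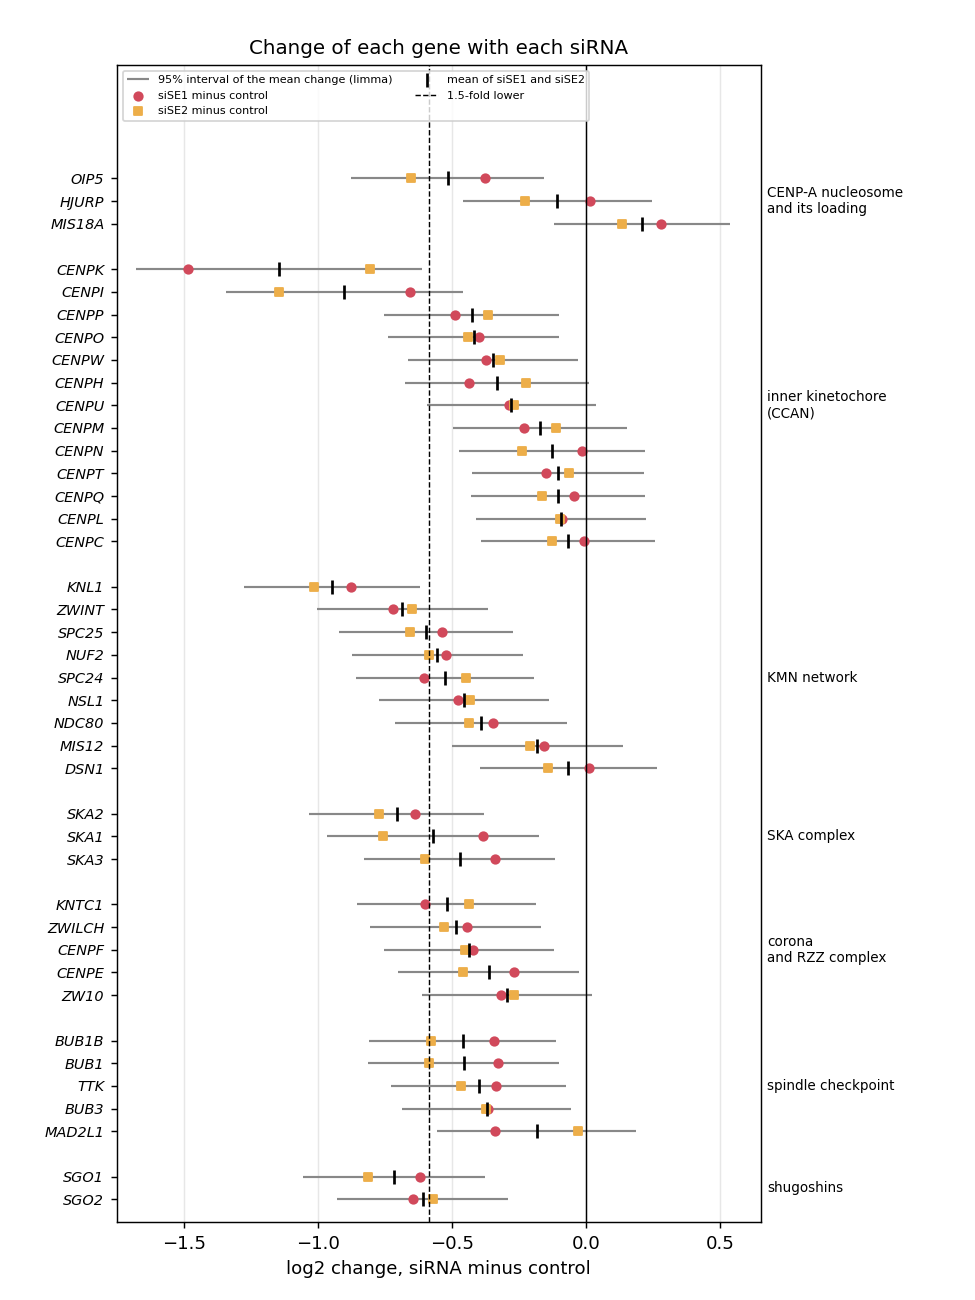
Log2 change of each gene against the control array for siSE1 and siSE2 (points), their mean (black tick) and its 95% interval from limma, unadjusted (grey line), by role; the dashed line marks 1.5-fold lower. The interval lies wholly below 0 for 26 of the 40 genes, and both points lie left of the dashed line for 6.

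Set against each other, the siRNA arrays gave close readings for most of these genes. The difference was under 0.2 (log2) for 29 of the 40, a count not made over all genes tested. The siSE2 reading was the lower one for 26 of the 40 genes (65%), against 48.9% of all genes tested. The median absolute difference between the siRNA arrays was 0.13 over the 40 genes and 0.12 over all genes tested (log2). By that measure the readings of these genes were no closer than those of genes in general. At least 1.5-fold lower than the control were 9 members with siSE1 (4.27% of all genes tested were) and 11 with siSE2 (2.82%). With 1 array each, this comparison has no test.

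Partners of the same machinery were described from 3 lists. Over all genes tested, 41.7% read lower on both siRNA arrays and 0.714% were called lower in limma. Of 22 measured kinetochore and checkpoint partners (of 25 listed), 18 read lower on both siRNA arrays, with a median change of -0.24. SPDL1, which encodes Spindly, the dynein adaptor recruited by the RZZ complex, read 8.44 with siSE1 and 8.33 with siSE2, against 9.14 in the control. SPDL1 was the 1 gene of the list that passed, lower by 0.75 on the log2 scale (SE 0.14, limma, adjusted p = 0.0491). It did not pass under 4 of the 8 other settings (adjusted p up to 0.141). HASPIN, the kinase that marks the centromere for the chromosomal passenger complex, stood at -0.67 ± 0.14 and TRIP13, which disassembles checkpoint complexes, at -0.44 ± 0.14.

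The anaphase-promoting complex is the ubiquitin ligase that the checkpoint holds back. Of its 14 subunits 10 read lower on both siRNA arrays, against 41.7% of all genes tested, with a median of -0.25. CDC26 read 6.50 with siSE1 and 7.02 with siSE2, against 7.85 in the control. CDC26 was the 1 subunit that passed, lower by 1.09 on the log2 scale (SE 0.20, limma, adjusted p = 0.0456). Of all genes tested, 0.714% were called lower. It did not pass under 4 of the 8 other settings (adjusted p up to 0.152). ANAPC7 and ANAPC5 stood at -0.51 and -0.49. Of 11 cohesin and separase genes 10 read lower on both arrays (against the same 41.7%), with a median of -0.36, and none passed. PTTG1, which encodes securin, stood at -0.55 ± 0.15, ESPL1, which encodes separase, at -0.54 ± 0.14 and SMC1A at -0.49 ± 0.15. No gene of the 3 lists was called higher, and differences between these lists and the 40 genes were not tested.

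**Figure D4:**
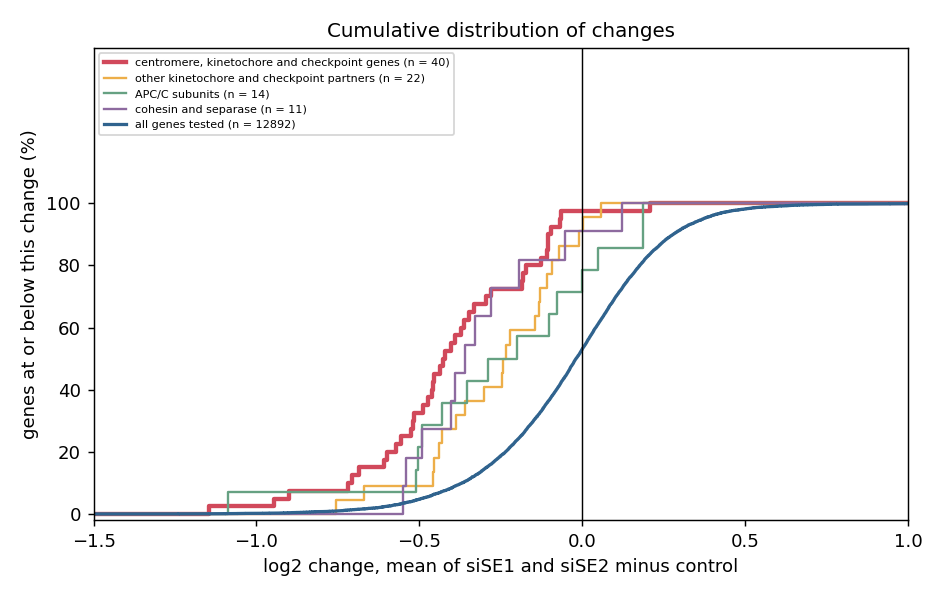
Percentage of genes at or below each log2 change (mean of siSE1 and siSE2 minus control) for the 40 centromere, kinetochore and checkpoint genes, the 3 partner lists and all 12892 genes tested. The curve of the 40 genes reaches 50% near their median of -0.42, and that of all genes near -0.02.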

How the data were processed

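Affymetrix arrays of LNCaP cells were used: siSE1 and siSE2 (1 array each, pooled as the chimera siRNA group) and 1 control. The authors deposited log2 values for 33297 probe sets, for which the submitters' processing notes name Affymetrix Expression Console. Its algorithm, the background correction and the build were not given in the sources used here. The log2 scale was read from the values (1.43 to 13.9). In the platform annotation 19460 probe sets had 1 gene symbol (19429 updated by gene identifier), 1754 had several and 12083 had none. Probe sets of a gene were averaged (18417 genes), and a filter at the 30th percentile of gene means (log2 5.12) removed 5525 genes; all 40 measured members passed this filter. limma 3.58.1 in R 4.3.3 (lmFit, eBayes) compared 2 siRNA arrays with 1 control array over 12892 genes, with Benjamini-Hochberg adjustment and a threshold of 0.05. Errors are its moderated standard errors, and intervals are unadjusted. The number of arrays limits the precision, and an exact permutation of 3 arrays cannot give a p below 0.333. The fit was tested on simulated data with 2 arrays against 1, with changed genes made at log2 changes of 1 and 2 in size. It recovered nearly all of those, but smaller changes, such as those of most members, were not simulated. In most runs the share of false calls was above the adjusted p threshold. The spread shared across genes was often estimated as more even than it was made, since 1 residual degree of freedom determines it poorly. Promoter sequences and gene names came from RefSeq (GRCh38.p14).

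All 41 members are named; full readings are given for members called, at least 1.5-fold from the control with both siRNAs, with the largest or smallest change of their role group, or with siRNAs at least 1.5-fold apart. From the partner lists, the genes called and up to 3 with the largest change shared by both siRNAs are named. The members and lists were chosen with earlier results of these data known. Alternatives covered normalization, the filter, the choice of probe set, the variance prior, thresholds and leaving out each siRNA array.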

Additional observations from a re-analysis of the deposited data

How the results depend on the processing

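The number of members passing limma was 1 as reported. It was 2 with quantile normalization, where 126 of all 12892 genes were called lower. It was also 2 with a variance prior that follows mean expression, where 129 were (KNL1 and CENPK in both). At an adjusted p threshold of 0.1 it was 9, a count not made over all genes, so it has no background here. With no filter on dim genes it was 0, where 0 genes of all 18417 were called lower. In that fit 26 members had an unadjusted p under 0.05, also without a count over all genes. The cause of the 0 calls was not tested. The count at least 1.5-fold lower with both siRNAs, 6, became 17 at 1.3-fold and 0 at 2-fold. With 1 siRNA array left out the rule rests on the other array alone, so the count could not be below 6. It was 9 with siSE1 alone and 11 with siSE2 alone. The median change over members was -0.37 with siSE1 alone and -0.44 with siSE2 alone, the same values as given above for each siRNA. The count lower on both siRNA arrays, 37, was between 36 and 39 with other normalizations, chosen after seeing the data. Members called higher numbered 0 in every setting run. Across 385 recomputed changes of the 49 genes named, 0 changed sign, 9 lost and 2 gained the call. The filter and variance-prior settings leave the change itself as it was, and among these genes the choice of probe set alters SKA2 alone. Only the other normalizations could therefore change the sign of the rest. No paired analysis was possible because the groups share fewer than 2 replicate numbers.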
